A study of Mus musculus with 30 samples.

Results

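The difference between regulatory and conventional CD4+ T cells was compared between the inflamed pancreas and lymph nodes of BDC2.5 TCR transgenic NOD mice. The comparison used 22 of the 30 arrays of the series, chosen by their titles: 8 arrays of pancreatic cells and 14 of lymph node cells. Pancreatic regulatory T cells (Treg, 3 arrays) had been sorted as CD4+CD25+CD69- and pancreatic effector T cells (Teff, 5 arrays) as CD4+CD25lo/-CD69+/-, all from BDC2.5 tg NOD mice that had received rat IgG, with no age in the labels. From mesenteric lymph nodes there were 5 arrays of CD4+CD25+ and 3 of CD4+CD25- cells, and from peripheral lymph nodes 3 of each. The node cells came from BDC2.5 TCR transgenic NOD mice of 4 weeks, with no treatment named and no gate on CD69. Tissue therefore coincided with treatment, gate and set of records, and these cannot be told apart. Every group carried the same rearranged T cell receptor transgene, so the T cells of all groups were enriched for 1 specificity. CD25 alone marked regulatory cells in the nodes, where recently activated conventional cells can also carry it. Nothing in the labels says that replicates came from separate animals, so p-values measure only the spread between these samples, which may be technical. Pancreatic arrays of mice treated with anti-ICOS, whose labels give an age in days, are used only at the end, under other observations.

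CD4+ regulatory T cells restrain other lymphocytes. They depend on the transcription factor Foxp3, carry the high-affinity interleukin-2 receptor chain CD25 (Il2ra) and act through the inhibitory receptor Ctla4, interleukin-10 and extracellular adenosine, among other routes. In non-lymphoid tissue they commonly take an effector state that depends on the transcription factor Prdm1 (Blimp-1). In the BDC2.5 model the transgenic receptor recognises an islet antigen, T cells enter the islets early in life, and regulatory cells at that site hold back the progression to diabetes.

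In what follows the pancreatic contrast is Treg minus Teff and the node contrast is CD25+ minus CD25-, averaged over the mesenteric and the peripheral sites. The difference of contrasts is the pancreatic contrast minus the node contrast. All 3 are differences of log2 intensity, fitted with limma to all 22 arrays, and a probe set was called when its adjusted p (Benjamini-Hochberg over 12422 probe sets) lay under 0.05. Because each contrast is taken within a tissue, an offset shared by both sorts of that tissue drops out. Where several probe sets name a gene, the brightest on average stands for it. Array intensities are linear in the deposited file, and their medians ran from 32.5 to 34.6 units in the pancreas and from 25.3 to 27.1 in the nodes.

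Il2ra, the gene of the sorting marker, was higher in the CD25+ sort of each tissue (contrast 1.94 in pancreas and 1.44 in nodes), and Foxp3 had no probe set. The source name of mesenteric CD25+ replicate 2 says CD25-, but its Il2ra level of 5.62 lay within the range of the other CD25+ arrays of that site, 5.44 to 6.36. The peripheral arrays carried a mesenteric tissue entry, and titles were followed in both cases. T cell transcripts such as Cd3g were present in all groups. Markers of other cells came in 8 lists, from erythroid, stromal, islet and exocrine cells to B, myeloid, CD8 and NK cells. Of 107 markers measured, 0 passed in the difference of contrasts by limma, 2 in the pancreatic and 8 in the node contrast. Over all genes 2.36%, 8.9% and 24.5% did, and an absence of calls does not show that such cells were absent. Erythroid markers summed to linear levels of 2200 to 2770 in pancreatic Treg, 508 to 2050 in Teff and 190 to 3510 in node cells. For exocrine markers these were 628 to 1110, 634 to 852 and 487 to 599. The part of such cells in the differences was not tested. The log2 ratio of the 3' to the 5' actin probe set, a sign of RNA length, averaged 3.75 ± 0.76 (SD, n = 3) in pancreatic Treg and 2.65 ± 0.31 (n = 5) in Teff cells, against 2.85 and 2.63 in mesenteric and 3.02 and 2.54 in peripheral CD25+ and CD25- cells. By exact permutation tests, two-sided, p was 0.0357 in pancreas, 0.0714 in mesenteric and 0.1 in peripheral nodes, the last being the smallest its 20 splits allow, and each came to 0.1 after adjustment over the 3 tests. The mean ratio was thus higher in the regulatory sort of each tissue, with no test past 0.05 after adjustment. Of 61 named genes called in the difference, 33 lost the call with this ratio as a term of the model, and they are named beside their values. With that term the differences of the 61 genes were 66.7% to 126% of their main values (median 98.9%). The median SE of the difference over all probe sets rose from 0.142 to 0.165.

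The contrasts of the 2 tissues were correlated, and a small share of transcripts differed between them. Across 12422 probe sets the pancreatic and node contrasts had r = 0.62, and the mesenteric and peripheral contrasts had r = 0.86. These are descriptive values, since probe sets are not independent and the node contrasts share a set of records. Of 12422 probe sets, 258 were called in the difference of contrasts (2.08%), 152 with a higher pancreatic contrast (1.22%) and 106 with a lower one (0.853%), and 105 differed by more than 2-fold. At an unadjusted p under 0.05 there were 1763. By gene, 195 of 8251 were called (2.36%), 116 in the positive and 79 in the negative direction. The share of called probe sets that were positive was 58.9%, and it was 71.0% when arrays were centred on their medians in place of quantile normalization (157 and 64 probe sets). With the actin ratio as a covariate 56 were called. Without peripheral CD25+ replicate 1, the array with the largest residual spread, 445 were called, and without pancreatic Teff replicate 5 there were 160.

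**Figure D1:**
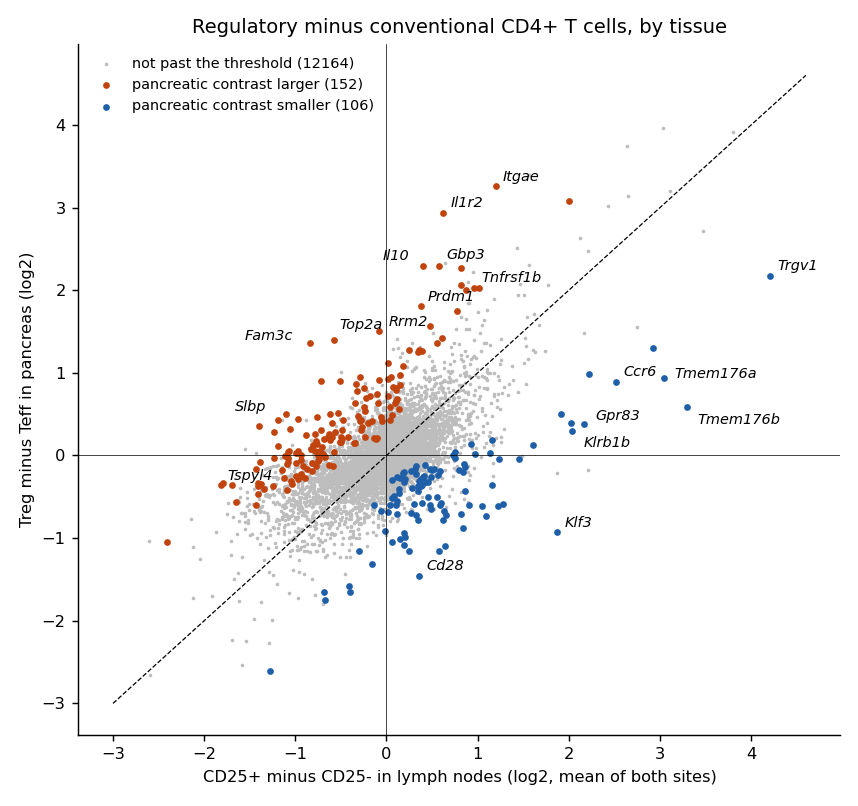
Each point is a probe set, with the node contrast on the x axis and the pancreatic contrast on the y axis (both log2), and the dashed line marks equal contrasts. The 258 called probe sets lie on both sides of the line, with Itgae, Il1r2 and Il10 above it and Trgv1 and Tmem176b far to its right.

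The called differences came from either tissue, but more often from the nodes. In 146 of the 258 probe sets the node contrast alone was called, being higher in CD25+ cells in 60 and lower in 86. The pancreatic contrast alone was called in 65, higher in Treg cells in 35 and lower in 30. Both were called in 40, with the same sign in 28 and opposite signs in 12, and neither in 7. The node contrast rests on 14 arrays and the pancreatic on 8, with a median SE of 0.09 against 0.11. As background, 21.4% of all probe sets were called in nodes (10.1% higher and 11.3% lower in CD25+ cells) and 7.56% in pancreas (4.02% higher and 3.54% lower in Treg cells). Without pancreatic Treg replicate 2, which had the highest actin ratio, 39 of 210 called probe sets came from the pancreatic contrast alone and 134 from the node contrast alone. Without peripheral CD25+ replicate 1 these were 79 and 300 of 445, and with the actin covariate 15 and 30 of 56. The pancreatic contrast had 939 called probe sets in all, 514 without pancreatic Treg replicate 2 and 130 with the actin covariate. At the gene level, 103 genes were called in the same direction in both contrasts with a difference whose 95% interval lay within -0.5 to 0.5. Among them, Ndrg1 was higher in regulatory cells by 0.96 in pancreas and 1.04 in nodes, and the phosphodiesterase Pde7a was lower, at -1.01 in both.

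The genes with the largest excess in pancreatic Treg cells included a cytokine, a decoy receptor and an integrin. Il10, the suppressive cytokine interleukin-10, read 7.14, 6.61 and 5.95 in the 3 pancreatic Treg arrays and 4.13 to 4.35 (median 4.29) in the 5 Teff arrays. In the nodes it read 4.31 to 5.18 in mesenteric and 4.43 to 4.72 in peripheral CD25+ cells, and 4.06 to 4.46 in CD25- cells. Every pancreatic Treg array thus lay above every other array of the comparison. The pancreatic contrast was 4.92-fold (log2 2.30), the node contrast 1.32-fold (0.40, adjusted p = 0.0729), and the difference 1.90 (SE 0.26, adjusted p = 0.000653).

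Il1r2, the decoy receptor that binds interleukin-1 without signalling, read 6.34, 8.21 and 8.09 in pancreatic Treg cells against 4.29 to 4.81 in Teff cells. Node CD25+ cells read 4.67 to 5.53 and CD25- cells 4.29 to 4.74, so all node arrays lay under the lowest pancreatic Treg array. The contrast was 7.65-fold in pancreas and 1.54-fold in nodes, a difference of 2.32 (SE 0.37, adjusted p = 0.00255). A dimmer probe set of Il1r2 differed by 1.08 (adjusted p = 0.0739). Itgae, the integrin chain CD103 that binds E-cadherin on epithelium, read 6.83, 6.92 and 7.50 in pancreatic Treg cells and 3.63 to 3.97 in Teff cells. It was also higher in node CD25+ cells, where peripheral replicate 3 reached 6.45 and the other 7 arrays read 4.34 to 5.50. The contrast was 9.55-fold in pancreas and 2.29-fold in nodes, with a difference of 2.06 (SE 0.38, adjusted p = 0.00624) in 1 probe set and 1.25 (adjusted p = 0.00903) in another.

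Prdm1, the transcription factor of effector Treg cells and plasma cells, read 6.01, 5.87 and 5.53 in pancreatic Treg cells and 3.85 to 4.12 in Teff cells. Node arrays of either sort read 3.87 to 4.79, with no array in the pancreatic Treg range. Its contrast was 1.81 in pancreas and 0.38 in nodes, a difference of 1.43 (SE 0.18, adjusted p = 0.000653). Entpd1 (CD39), the ectonucleotidase that starts the breakdown of extracellular ATP, rose in both tissues, by 1.37 in pancreas and 0.55 in nodes (difference 0.81, SE 0.15, adjusted p = 0.0058). Tnfrsf1b, the TNF receptor TNFR2 that supports Treg expansion, rose by 2.03 and 0.96 (difference 1.06, adjusted p = 0.00255). The chemokine receptor Cxcr3, which guides T cells to interferon-induced chemokines, read 8.33, 8.48 and 8.35 in pancreatic Treg cells and 6.41 to 6.79 in Teff cells, while mesenteric CD25+ cells read 5.96 to 6.55 and peripheral CD25+ cells 6.88 to 7.82 (difference 0.98, adjusted p = 0.0138). With the actin ratio as a covariate Cxcr3 was no longer called, whereas Il10, Il1r2, Itgae, Prdm1, Entpd1 and Tnfrsf1b were.

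**Figure D2:**
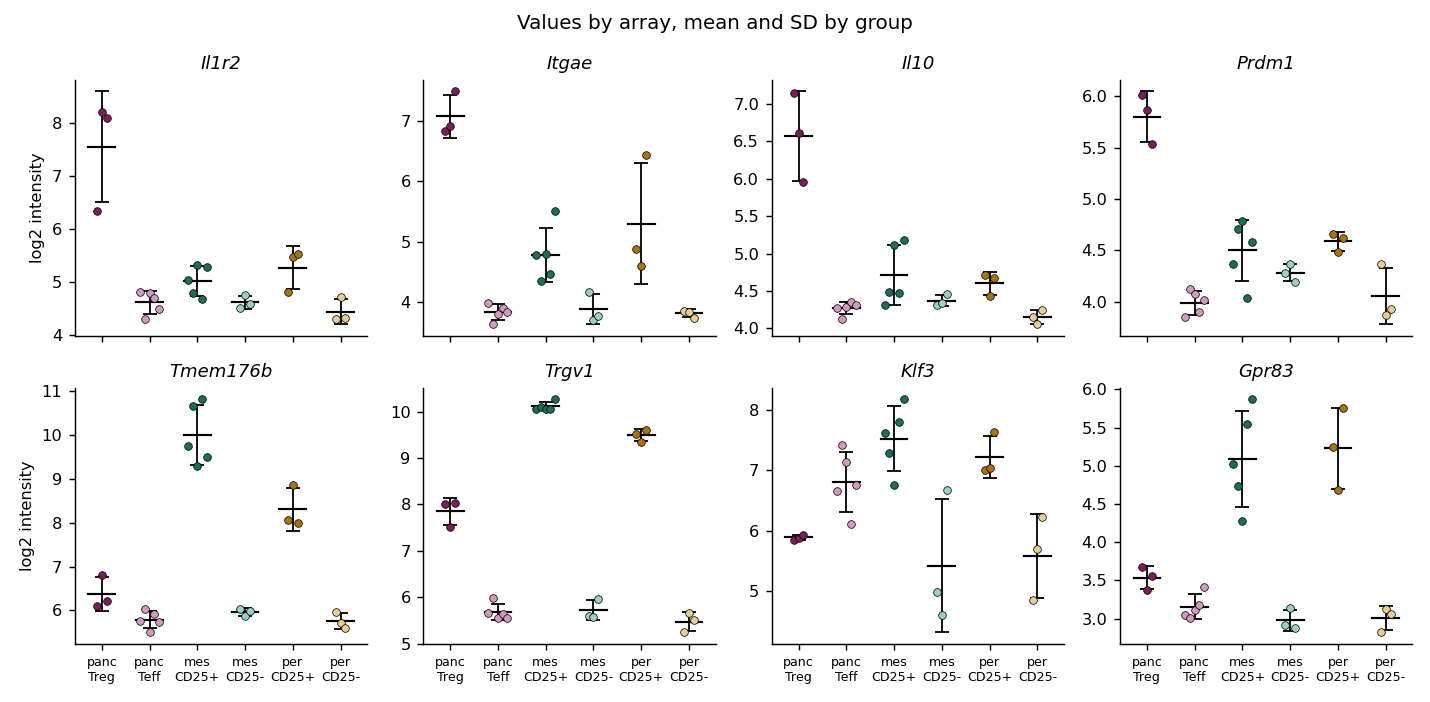
Points are single arrays (log2 intensity), horizontal lines are group means and bars are the SD, for pancreatic (panc), mesenteric (mes) and peripheral (per) sorts. In the upper row the 3 pancreatic Treg arrays of Il10 and Prdm1 lie above all node arrays; in the lower row Tmem176b and Gpr83 are high in node CD25+ cells, with at most a small shift in pancreas.

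The granzyme Gzmk and the chemokine Ccl3 had smaller differences. Gzmk read 5.11, 4.80 and 4.92 in pancreatic Treg cells against 3.73 to 3.94 in Teff cells and 3.21 to 3.88 in the nodes (difference 0.90, SE 0.13, adjusted p = 0.00186). Ccl3 read 5.12 to 5.59 in pancreatic Treg and 4.45 to 4.74 in Teff cells. All node arrays read 3.25 to 3.71, near the 25th percentile of levels at 3.65, where background limits a contrast. Its contrasts were 0.64 in pancreas and 0.09 in nodes, so both pancreatic sorts stood above the nodes. Ccl3 differed by 0.55 (adjusted p = 0.0388) and lost its call in 13 of 22 fits that left out 1 array and with the actin covariate. Among the largest positive differences was also Gbp3, an interferon-induced GTPase. It read 8.45 to 8.71 in pancreatic Treg and 5.89 to 6.50 in Teff cells. Mesenteric arrays of both sorts overlapped, at 6.35 to 8.18 in CD25+ and 7.23 to 7.66 in CD25- cells (contrast -0.07). Peripheral CD25+ cells read 7.64 to 8.60 and CD25- cells 6.61 to 7.13 (contrast 1.22, adjusted p = 0.0165 by limma). Peripheral CD25+ replicate 1 thus lay within the range of pancreatic Treg cells, and Teff cells had the lowest mean of the 6 groups. Its difference was 1.72 (SE 0.35, adjusted p = 0.0107), and it was not called with the actin covariate. Fam3c, a secreted protein, had opposite contrasts (1.36 in pancreas, -0.84 in nodes) in its brightest probe set, but another probe set gave 1.21 and 0.88, so the direction in nodes depended on the probe set.

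Most Treg signature genes were not called in the difference, though the share called was larger than over all genes (2.36%). Of 26 measured members, 17 rose in pancreas and 17 in nodes, 0 fell in either, and 5 were called in the difference: Itgae, Il10, Tnfrsf1b and Entpd1 in the positive and Gpr83 in the negative direction. The list's median difference was 0.17, against -0.02 over all 8251 genes, where 1.41% were called positive and 0.957% negative in the difference. Over all genes, 4.58% rose and 4.31% fell in pancreas, and 11.4% rose and 13.1% fell in nodes. These genes are markers that had been chosen with earlier results of the same arrays known, as were the other lists. Neither their direction within each tissue nor the share called in the difference is therefore independent evidence. The same 4 positive and 1 negative counts were found without peripheral CD25+ replicate 1, without pancreatic Treg replicate 2, with median centring and with the actin covariate.

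Socs2, an inhibitor of cytokine signalling, had nearly equal contrasts, 3.91 in pancreas and 3.80 in nodes, with a 95% interval of the difference from -0.45 to 0.67. Its values were 8.85 to 9.18 in pancreatic Treg cells and 7.94 to 9.32 in node CD25+ cells, against 4.86 to 5.48 in the conventional cells of all 3 sites. Tnfrsf18 (GITR), a costimulatory receptor, had contrasts of 1.58 and 1.67 (interval -0.54 to 0.35), and Ctla4 had 2.48 and 2.21 (interval -0.18 to 0.72). Wider intervals surrounded Gzmb (granzyme B), at 3.75 and 2.64 (interval 0.15 to 2.07, adjusted p = 0.27), and S100a6, a calcium-binding protein, at 3.20 and 3.11 (interval -0.99 to 1.15). Klrg1, an inhibitory receptor of differentiated T cells, had contrasts of 3.96 and 3.03 (adjusted p of the difference 0.091). Nrp1, the semaphorin receptor neuropilin-1, went the other way, at 2.72 and 3.48 (adjusted p = 0.0696), and neither difference was called. Penk (preproenkephalin) differed by 0.63 in its brightest probe set (adjusted p = 0.283) and by 1.07 in another (adjusted p = 0.0255), with contrasts of 3.08 and 2.00 in the latter. All 10 suppressive effectors had a positive difference, as did 3840 of all 8251 genes. The median of the 10 was 0.47, against -0.02 over all genes. Of the 10, 2 were called, where 2.36% of all genes were: Il10 and Entpd1, both also in the signature list. This list too was chosen with earlier results known, so these counts are no independent evidence.

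Of the 12 genes with the largest negative differences, most rose in node CD25+ cells with a smaller or no called rise in pancreas, while Cd28, Tcf4 and Snrpd3 were called for a fall in pancreas alone. Tmem176b, a membrane protein found in immature dendritic cells and in RORgt-expressing lymphocytes, read 9.29 to 10.81 in mesenteric and 7.99 to 8.87 in peripheral CD25+ cells, and 5.60 to 6.04 in node CD25- cells. In the pancreas it read 6.09, 6.82 and 6.21 in Treg and 5.51 to 6.04 in Teff cells. No pancreatic array reached the range of node CD25+ cells. The contrast was 9.79-fold in nodes and 1.5-fold in pancreas (adjusted p = 0.266), a difference of -2.71 (SE 0.36, adjusted p = 0.000653). Its neighbour and partner Tmem176a followed, with contrasts of 3.04 in nodes and 0.94 in pancreas and a difference of -2.10 (SE 0.36). Both genes had higher values in mesenteric than in peripheral CD25+ cells, and Tmem176a read 7.84 to 9.64 in the former and 6.25 to 7.29 in the latter.

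Trgv1, a variable segment of the T cell receptor gamma chain, had the smallest adjusted p of the named genes. It read 10.06 to 10.26 in mesenteric and 9.34 to 9.60 in peripheral CD25+ cells, 7.51 to 8.04 in pancreatic Treg cells, and 5.25 to 5.99 in the conventional cells of every site. The rise was thus 18.5-fold in nodes and 4.51-fold in pancreas, and the difference was -2.03 (SE 0.16, adjusted p = 1.04e-06). A probe set naming Trgv4 alone differed by -1.63 (adjusted p = 0.00887). Some gamma segments are alike in sequence, and cross-hybridisation between them was not tested.

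Gpr83, a G protein-coupled receptor of Treg cells, read 4.28 to 5.87 in node CD25+ cells and 2.82 to 3.13 in CD25- cells, but 3.38 to 3.68 in pancreatic Treg and 3.01 to 3.42 in Teff cells. In 2 of the 3 pancreatic Treg arrays its level lay under 3.65, the 25th percentile of all levels. The contrasts were 2.17 and 0.38, and the difference was -1.79 (SE 0.33, adjusted p = 0.0059). Ccr6, the receptor for Ccl20 on Th17-type and some regulatory cells and on B cells, read 8.53 to 10.59 in node CD25+ cells, 7.40 to 7.73 in pancreatic Treg and 6.46 to 6.90 in Teff cells. Its contrast was 5.73-fold in nodes and 1.86-fold in pancreas (difference -1.63, SE 0.26, adjusted p = 0.00255). Klrb1b, a lectin-like receptor of the NK complex, read 7.17 to 9.38 in node CD25+ and 5.91 to 6.53 in all pancreatic arrays (difference -1.74, adjusted p = 0.0029). Itih5, an inter-alpha-trypsin inhibitor chain, rose by 2.22 in nodes and 0.99 in pancreas (difference -1.24, adjusted p = 0.00289). A dim second probe set of Itih5 gave 0.08 (adjusted p = 0.795).

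Several transcriptional regulators and a cytokine receptor also had negative differences. Lmo4, a LIM-domain adaptor, read 5.97 to 7.31 in node CD25+ cells against 4.53 to 4.90 in pancreatic Treg cells, and its contrasts were 1.09 and -0.73 (difference -1.83, adjusted p = 0.00255). Id3, an inhibitor of E proteins, rose by 0.84 in nodes and stood at -0.20 in pancreas (difference -1.04, adjusted p = 0.00794). Id2, its paralog, rose by 1.60 in nodes with a pancreatic contrast of 0.13 (difference -1.47, adjusted p = 0.0262). Id2 lost its call in 5 of 22 fits that left out 1 array. The corepressor Nrip1 differed by -1.86 (adjusted p = 0.0397) and lost its call in 15 such fits. Il6ra, the interleukin-6 receptor chain, rose by 1.04 in nodes and stood at -0.62 in pancreas (difference -1.66, SE 0.25, adjusted p = 0.00253). Of these 5 genes, Lmo4 and Il6ra were called with the actin covariate. Of 33 transcription factors of T cell lineages, 1 was called positive (Prdm1) and 4 negative (Foxp1, Id3, Id2 and Pou2af1), against 1.41% and 0.957% of all genes, and with the actin covariate Prdm1 alone was called. Nfil3 passed in a dim second probe set (1.03, adjusted p = 0.000653) and not in its brightest (0.17).

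Class II genes of antigen-presenting cells moved with the same node sort. H2-Aa read 8.62 to 9.72 in mesenteric and 7.18 to 8.81 in peripheral CD25+ cells, 5.75 to 7.87 in node CD25- cells, and 6.18 to 7.59 in all pancreatic arrays. Its node contrast was 1.87 (adjusted p = 0.000412) and its difference -2.08 (adjusted p = 0.0622). Of 17 B cell markers, 6 rose in the mean node contrast, where 11.4% of all genes did: H2-Aa, H2-Eb1, H2-Ab1, Cd74, Blk (1.05) and Cd79b (0.85). By site, H2-Aa, H2-Eb1, Cd74, Blk and Cd79b were called by limma in the mesenteric contrast alone. Their peripheral contrasts were 0.54 to 1.44 (adjusted p 0.0808 to 0.449), and the site contrasts did not differ at the threshold. The summed linear level of the 17 markers was 1580 to 2960 in mesenteric and 1120 to 2260 in peripheral CD25+ cells, 863 to 1460 in node CD25- cells and 796 to 1260 in pancreas. The B cell genes Cd79a, Ms4a1, Pax5 and Cd22 were not called in nodes (contrasts 0.02, -0.01, 0.12 and -0.16), and no marker in the lists was at 0, since array intensities have a background. Of 20 macrophage and dendritic cell markers, 0 were called in either tissue. Without peripheral CD25+ replicate 1, 2 of the 17 B cell markers were called negative in the difference. The part of such cells in the values of Tmem176b, Tmem176a, Ccr6 and Klrb1b was not tested. In bulk samples of sorted cells, a change in the share of cells that carry a transcript and a change in its level per cell cannot be told apart.

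A further group of genes was lower in node CD25+ than in CD25- cells, with a smaller or no called fall in pancreatic Treg cells. Slbp, which binds the stem-loop of histone mRNAs during DNA replication, read 5.50 to 5.87 in pancreatic Treg and 5.02 to 5.35 in Teff cells, 4.27 to 5.01 in node CD25+ and 5.30 to 6.22 in node CD25- cells. The node contrast was -1.19 and the pancreatic 0.43 (difference 1.62, SE 0.19, adjusted p = 0.000243). Kpna2, a nuclear import factor of dividing cells, had contrasts of -1.10 and 0.50 (difference 1.60, adjusted p = 0.00593). Cdv3 had -1.23 and 0.28 (difference 1.51, adjusted p = 0.00744), and its node CD25+ arrays read 4.11 to 5.52 against 6.04 to 6.83 in all pancreatic arrays. A dim second probe set of Cdv3 gave a difference of 0.09 (adjusted p = 0.782). Tspyl4 had -1.82 and -0.36 (difference 1.46, adjusted p = 0.0187), and Tmem68 had -1.79 and -0.33 (difference 1.46, adjusted p = 0.00354). The ribosome biogenesis factor Rrs1 fell in both tissues, by 2.41 in nodes and by 1.05 in pancreas (difference 1.36, adjusted p = 0.0255). So did Pnpt1, a mitochondrial RNA-degrading enzyme (-1.66 and -0.57, difference 1.09, adjusted p = 0.00685). Sh3bgrl, at 1.61 (adjusted p = 0.0357), lost its call in 10 of 22 fits that left out 1 array. Sh3bgrl and Rrs1 were not called with the actin covariate, nor was Tspyl4.

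Cell cycle genes leaned to a larger rise in the pancreas. Of 39 measured members, 21 rose in pancreas and 0 fell, whereas 10 rose and 3 fell in nodes. Over all genes 4.58% rose and 4.31% fell in pancreas, and 11.4% rose and 13.1% fell in nodes. In the difference 7 were called positive (Top2a, Rrm2, Kif11, Stmn1, Ezh2, Rrm1 and Mcm4) and 1 negative (Ccnd2), and the median was 0.40 against -0.02 over all genes. The background of the difference was 1.41% positive and 0.957% negative. With the actin covariate 1 member was called, with a median of 0.45, and without pancreatic Treg replicate 2 there were 6, all positive.

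Top2a, the topoisomerase that untangles chromosomes, read 6.09, 5.60 and 6.97 in pancreatic Treg and 4.45 to 5.37 in Teff cells. In nodes it was lower in CD25+ than in CD25- cells, at 4.81 to 5.97 against 5.45 to 6.49. The contrasts were 1.40 and -0.58 (difference 1.98, SE 0.33, adjusted p = 0.00354), and Top2a was the member still called with the actin covariate. Rrm2, the ribonucleotide reductase subunit that limits deoxynucleotide supply, read 6.73, 6.91 and 7.43 in pancreatic Treg and 4.89 to 5.98 in Teff cells. Node arrays of both sorts overlapped, at 5.88 to 7.02 in CD25+ and 5.96 to 7.15 in CD25- cells. Its contrast was 2.83-fold in pancreas and -0.08 on the log2 scale in nodes (difference 1.58, SE 0.29, adjusted p = 0.0059). Kif11, the spindle motor Eg5, read 4.64, 4.89 and 5.74 in pancreatic Treg against 4.03 to 4.28 in Teff cells (difference 1.24, adjusted p = 0.0357), but lost its call in 9 of 22 fits that left out 1 array. The other reductase subunit Rrm1 differed by 0.90 and the microtubule regulator Stmn1 by 1.00. A dimmer second probe set of each gave -0.43 and -0.16, not called, and neither gene was called on the mean of its probe sets.

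Mcm4, a subunit of the replicative helicase, and Ezh2, the histone methyltransferase of dividing cells, were called for a fall in nodes. Mcm4 fell by 1.25 there and stood at -0.37 in pancreas (difference 0.88, adjusted p = 0.0187), and Ezh2 fell by 0.77 and stood at 0.18 (difference 0.95, adjusted p = 0.0228). Aspm, a spindle-pole protein outside the list, rose by 0.90 in pancreas and fell by 0.51 in nodes (difference 1.41, adjusted p = 0.00744). Ccnd2, the D-type cyclin of early G1, went against the rest, with 1.15 in nodes and -0.36 in pancreas (difference -1.51, adjusted p = 0.0316, lost in 10 of 22 fits that left out 1 array). Mki67, the proliferation marker Ki-67, had contrasts of 2.34 and 0.64 without a called difference (1.70, adjusted p = 0.0714), and Cdk1 had 1.48 and 0.51 (adjusted p = 0.103). Within groups the members varied together with the array: pancreatic Treg replicate 3 was the highest of its group for Top2a, Rrm2, Kif11 and Mki67, and peripheral CD25+ replicate 3 for Top2a, Kif11 and Mki67.

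Promoter windows are shown for cell cycle genes called positive in the difference, whether through the pancreatic or the node contrast. Late cell cycle genes are known to share a CCAAT box, bound by NF-Y, and a cell cycle homology element. RefSeq windows (GRCm38.p6) from 250 bases before to 50 after the start were at hand for 5 of the 7 positive members. CCAAT was searched on both strands, and the homology element as TTTGAA or TTTAAA on both strands, and no match of one overlapped a match of the other in the windows printed. All 5 windows (Top2a, Rrm1, Rrm2, Kif11, Ezh2) held CCAAT, which 37.4% of 32851 promoter windows held. Top2a, Rrm2 and Kif11 also held TTTGAA or TTTAAA, which stood in 27.6% of all windows, and 10.7% held both. The 3 windows with both follow, 5' to 3' on the gene's strand, with matches on either strand in capitals (ATTGG and TTCAAA are the reverse forms). They lie at chr11:99024140-99024439 on the minus strand, chr12:24708004-24708303 on the plus strand and chr19:37376132-37376431 on the plus strand.
Top2a: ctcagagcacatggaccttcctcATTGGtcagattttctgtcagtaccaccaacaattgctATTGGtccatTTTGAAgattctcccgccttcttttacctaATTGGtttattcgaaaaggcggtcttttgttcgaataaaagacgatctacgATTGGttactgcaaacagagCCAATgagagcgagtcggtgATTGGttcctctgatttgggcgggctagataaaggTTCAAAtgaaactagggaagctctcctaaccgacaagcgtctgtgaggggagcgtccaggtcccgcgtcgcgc
Rrm2: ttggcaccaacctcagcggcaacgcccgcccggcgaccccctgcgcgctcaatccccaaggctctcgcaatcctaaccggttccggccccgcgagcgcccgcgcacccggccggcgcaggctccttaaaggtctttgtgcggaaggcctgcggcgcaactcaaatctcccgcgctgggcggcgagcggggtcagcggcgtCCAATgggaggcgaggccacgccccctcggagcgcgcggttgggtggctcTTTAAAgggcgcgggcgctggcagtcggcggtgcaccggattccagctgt
Kif11: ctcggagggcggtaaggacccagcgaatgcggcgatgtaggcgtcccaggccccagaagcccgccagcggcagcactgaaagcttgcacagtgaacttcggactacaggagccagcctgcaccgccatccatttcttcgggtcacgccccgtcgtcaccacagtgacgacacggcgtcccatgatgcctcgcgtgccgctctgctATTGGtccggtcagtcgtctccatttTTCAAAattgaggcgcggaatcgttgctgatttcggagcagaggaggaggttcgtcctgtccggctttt
In these letters the Top2a window carried 6 CCAAT matches and 2 of the homology element, and the other 2 windows carried 1 of each. A match is a description of the letters and no measure of binding.

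Genes of naive and resting T cells showed the opposite pattern. Of 21 measured members, 13 fell and 0 rose in pancreas, against 6 that fell and 2 that rose in nodes. Over all genes 4.31% fell and 4.58% rose in pancreas, and 13.1% fell and 11.4% rose in nodes. In the difference 6 were called, all negative (Klf3, Cd28, Actn1, Bcl2, Foxp1 and Evl), against 0.957% of all genes, with a median of -0.52. These calls moved with the processing: 2 members were called without pancreatic Treg replicate 2, 2 with median centring and 1 (Klf3) with the actin covariate, with medians of -0.37, -0.36 and -0.37. Foxp1, a transcription factor that keeps T cells quiescent, read 7.08, 6.49 and 7.09 in pancreatic Treg cells, under all 19 other arrays, which read 7.38 to 8.35. Its contrasts were -0.94 in pancreas and 0.20 in nodes (difference -1.13, SE 0.25, adjusted p = 0.021). Actn1, an actin cross-linker of resting T cells, read 7.13 to 7.98 in pancreatic Treg and 8.37 to 10.05 in all other arrays (contrasts -1.65 and -0.40, difference -1.26, adjusted p = 0.0261). Evl, an actin polymerisation factor, fell by 1.15 in pancreas with -0.30 in nodes (difference -0.86, adjusted p = 0.024). A second probe set of each was called too, at -0.96 for Foxp1, -1.17 for Actn1 and -1.07 for Evl, while a further, dim one of Actn1 gave 0.05.

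Klf3, Cd28 and Bcl2 differed in where their difference lay: Klf3 and Bcl2 were called in the node contrast alone and Cd28 in the pancreatic contrast alone. Klf3, a Krüppel-like repressor, read 5.86, 5.88 and 5.94 in pancreatic Treg and 6.12 to 7.42 in Teff cells, and 6.76 to 8.18 in node CD25+ cells. Node CD25- cells varied widely, with 4.99, 4.61 and 6.67 in mesenteric and 4.85, 5.70 and 6.23 in peripheral replicates 1 to 3. The difference was -2.80 (SE 0.50, adjusted p = 0.00578), the largest negative value, but a second probe set of Klf3 gave -0.26 (adjusted p = 0.384) with a node contrast of -0.20. Cd28, the costimulatory receptor, read 6.63 to 7.20 in pancreatic Treg and 8.08 to 8.75 in Teff cells, a contrast of -1.45. In node CD25- cells it ranged from 5.92 to 8.24, with replicate 3 of each site the highest, and the CD25+ arrays lay within that range (contrast 0.36). The difference of -1.81 (adjusted p = 0.0228) was not called with median centring. Bcl2, the survival factor, had contrasts of 0.60 in nodes and -0.58 in pancreas (difference -1.18, adjusted p = 0.0168), with further probe sets at -1.53 (adjusted p = 0.0437) and -0.32 (not called). A second probe set of Lef1, a factor of naive T cells, gave -1.04 (adjusted p = 0.00979) where its brightest gave -0.19. Members that fell in both tissues without a called difference included Itm2a (-2.25 and -1.54), Nsg2 (-1.98 and -1.46) and Satb1 (-1.44 and -0.90).

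**Figure D3:**
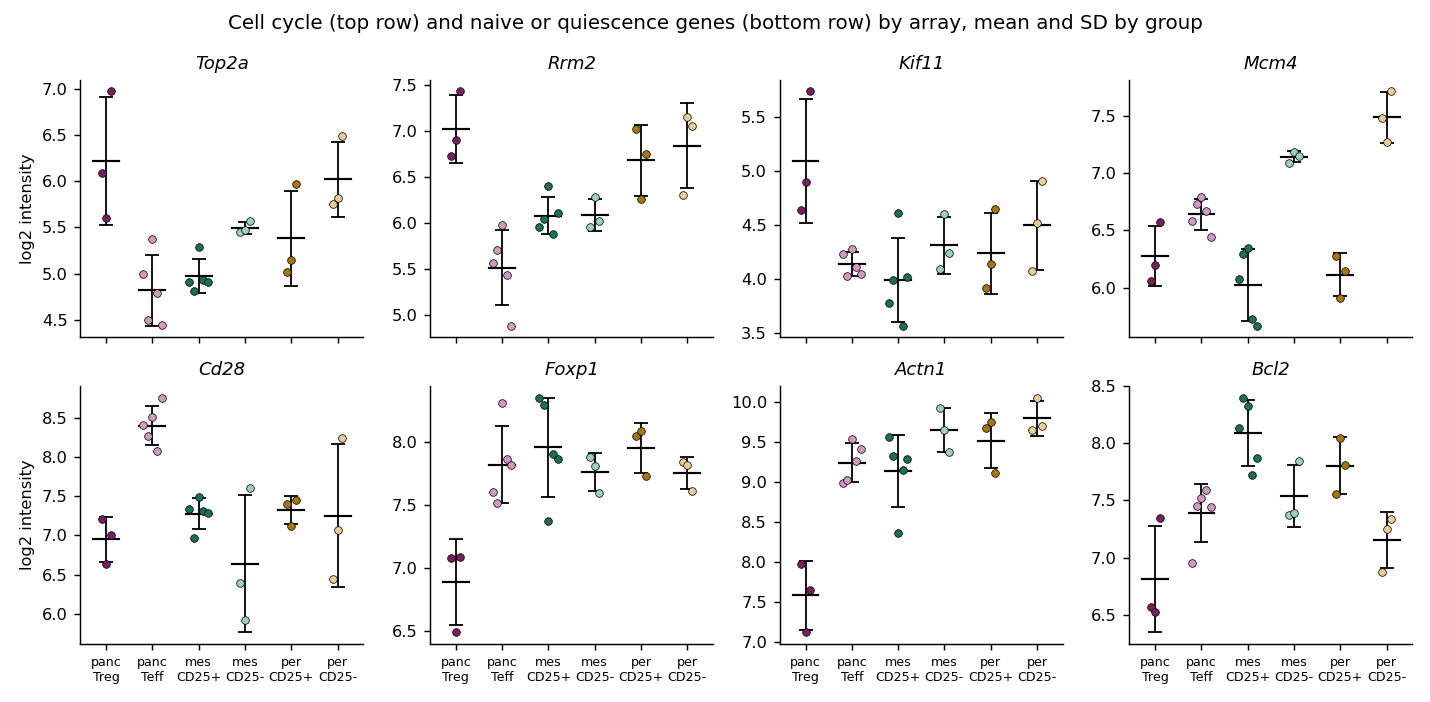
Points are single arrays (log2 intensity) with the group mean and SD for 4 cell cycle genes (upper row) and 4 genes of naive or resting cells (lower row). Foxp1 and Actn1 are lowest in the 3 pancreatic Treg arrays, Mcm4 separates the node sorts more than the pancreatic ones, and Cd28 spreads widely in node CD25- cells.

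Other genes in this direction were spread over signalling and adhesion. Txk, a Tec-family kinase downstream of the T cell receptor, read 7.89 to 8.01 in pancreatic Treg cells and 8.36 to 9.49 in all other arrays (difference -0.90, adjusted p = 0.0119). A second probe set of Txk gave -0.07 (adjusted p = 0.866), and the gene was not called on the mean of its probe sets. Dusp2, a phosphatase of MAP kinases, differed by -0.83 (adjusted p = 0.00662), and Selp (P-selectin) by -0.54 (adjusted p = 0.00685). Pou2af1, a coactivator of octamer factors known from B cells, fell in both tissues, by 2.61 in pancreas and by 1.28 in nodes (difference -1.33, adjusted p = 0.00857). A dim second probe set of Pou2af1 gave -0.25 (adjusted p = 0.4). The splicing protein Snrpd3 and the E protein Tcf4 differed by -1.72 and -1.74, and both lost the call without pancreatic Treg replicate 2. Tcf4 read 4.71, 2.90 and 3.43 in pancreatic Treg cells, so its replicate 1 lay within the Teff range of 4.48 to 5.11. None of these 6 genes was called with the actin covariate.

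Other lists had 0 to 3 called differences each, where 2.36% of all genes were called. Of 26 motility and calcium-binding genes of effector-memory cells, 15 rose in pancreas (background 4.58%) and 16 in nodes (11.4%), and 1 was called in the difference, Ccnd2, which is also in the cell cycle list. Of 24 members of cytokine signalling and 13 heat shock genes, 0 were called in the difference. Of 24 interferon response genes 1 was called, Gbp3, and of 15 cytotoxic genes 1, Gzmk, with a list median of 0.33. Chemokine receptors split, with Cxcr3 positive and Ccr6 negative among 13, and so did cytokine receptors, with Il1r2 positive and Il6ra negative among 23. Of 18 members of the list of costimulatory and TNF receptors, Tnfrsf1b was positive and Cd28 and the ligand Tnfsf8 were negative. Tnfsf8 differed by -0.40 (adjusted p = 0.0473). Its call was lost in 16 of 22 fits that left out 1 array and with the actin covariate. In the adhesion list of 20 genes, which also held the G protein-coupled receptor Gpr83, Itgae was positive and Selp and Gpr83 were negative.

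**Figure D4:**
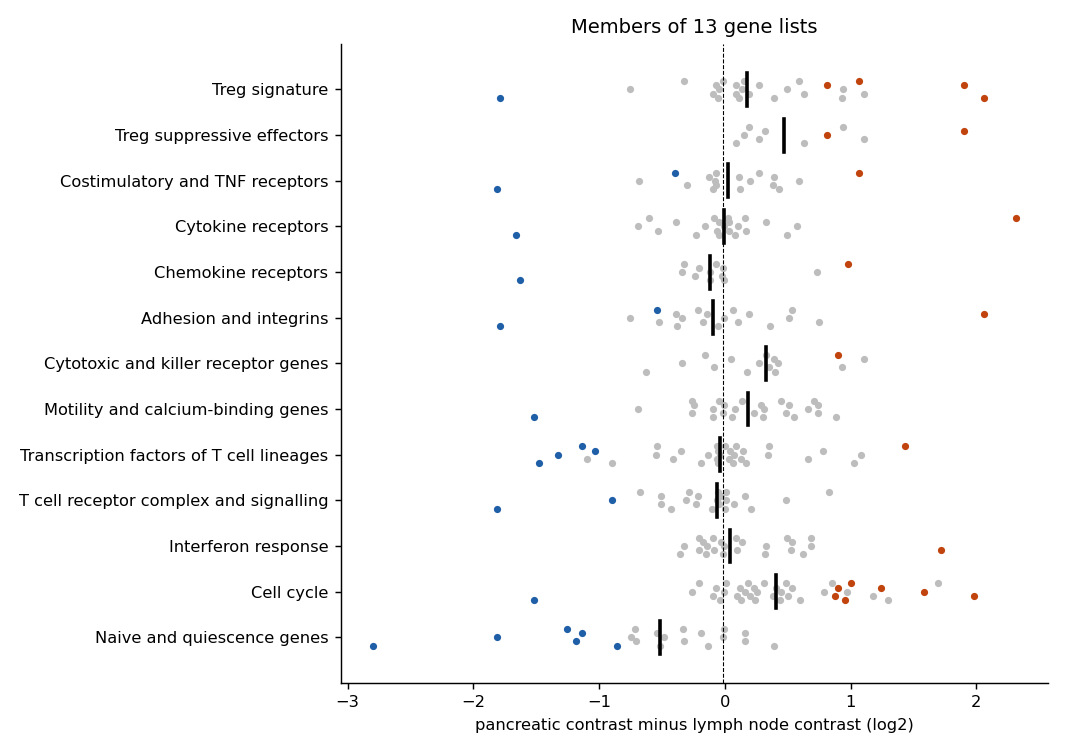
Each point is a gene, placed by its difference of contrasts (log2); black bars are list medians, the dashed line is the median over all genes, and coloured points passed the test. The cell cycle list lies to the right (median 0.40) and the naive list to the left (median -0.52), while most lists have called genes on both sides.

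The 24 genes with the largest differences were also compared within runs of array numbers, which fell into 3 groups in the pancreas and 2 in the nodes. Combining each pancreatic run with each node run gave 6 values per gene, each from 1 or 2 arrays a group, or 3 in mesenteric CD25+ cells of 1 run. The genes had been chosen for their overall difference on these same arrays, so these values describe its spread and are no support for it. The sign was that of the overall difference in all 6 values for 23 of the 24 genes, and in 5 of 6 for Nrip1. The range was 1.08 to 2.71 for Il10, 1.12 to 2.95 for Il1r2 and -3.27 to -1.77 for Tmem176b, but 0.41 to 3.17 for Top2a. Of the 24 genes, 16 kept their call in every alternative fit. The other 8 lost it with the actin covariate (Gbp3, Sh3bgrl, Rrm2, Tspyl4, Nrip1, Cd28, Tcf4 and Snrpd3).

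**Figure D5:**
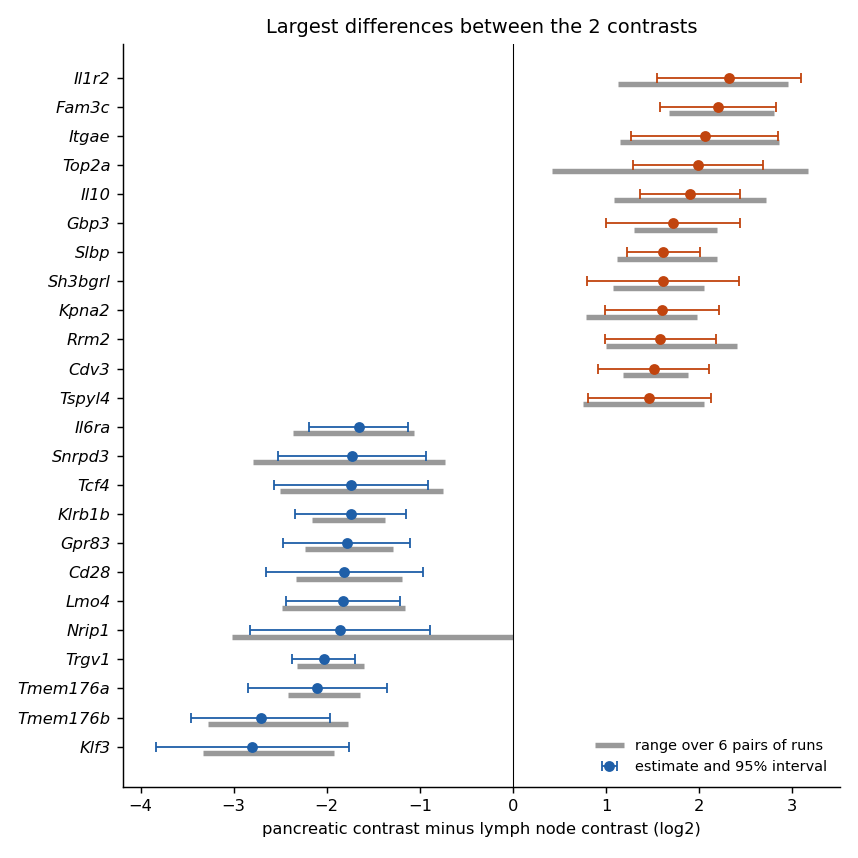
Points are differences of contrasts (log2) with 95% intervals from the fit, and grey bars span the 6 values from single array-number runs. The intervals of all 24 genes exclude 0, and the grey bar of Nrip1 reaches 0.

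The remaining genes named by size within a class showed the same variety. Klf10, a TGF-beta-induced repressor, rose by 0.86 in pancreas and fell by 0.34 in nodes (adjusted p of the difference 0.00272), and read 7.03 to 7.44 in pancreatic Treg and 6.09 to 6.54 in Teff cells. A dimmer second probe set of Klf10 differed by 0.66 (adjusted p = 0.106), with neither contrast called. Ermp1, a peptidase of the endoplasmic reticulum, also had opposite signs (0.59 and -0.24), as did Tprgl (-0.50 and 0.45). Twsg1, a secreted modulator of BMP signalling, rose in pancreas alone, by 0.79 with -0.33 in nodes (difference 1.11, adjusted p = 0.00662). AU020206 rose in both tissues, 4.01-fold and 1.83-fold, and read 9.31 to 9.89 in pancreatic Treg cells, above the 19 other arrays at 7.21 to 8.76. AW112010 rose by 2.03 and 1.01, with a difference (1.02) that lost its call in 11 of 22 fits that left out 1 array. Ssbp2 and Ms4a4c were lower in pancreatic Treg cells alone (-1.09 and -1.01, with 0.19 and 0.15 in nodes), and both lost the call of the difference without pancreatic Treg replicate 2. Tprgl, Twsg1, AW112010, Ssbp2 and Ms4a4c were not called with the actin covariate.

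The node sites were then taken apart, with the caveat that both comparisons share the pancreatic arrays. Against mesenteric nodes 166 probe sets were called (1.34%), 99 of them positive (0.797%) and 67 negative (0.539%), a balance that turned without pancreatic Treg replicate 3 (79 and 85), and against peripheral nodes 52 (0.419%), 36 positive (0.29%) and 16 negative (0.129%). The mesenteric and the peripheral contrasts, within 1 set of records and 1 gate, differed in 3 probe sets (0.0242%), and in 431 at an unadjusted p under 0.05. By array left out, the first count ranged from 61 (mesenteric CD25- replicate 2) to 268 (mesenteric CD25+ replicate 3), and the second from 19 (peripheral CD25+ or CD25- replicate 2) to 109 (peripheral CD25+ replicate 1). The comparison between node sites and the one against peripheral nodes rest on groups of the same sizes (5, 3, 3 and 3 arrays). Il10, Il1r2, Prdm1, Trgv1, Gpr83 and Tmem176b were called against each site. Itgae differed by 2.36 from mesenteric (adjusted p = 0.00834) and by 1.76 from peripheral nodes (adjusted p = 0.0893). Gbp3 differed by 2.37 from mesenteric (adjusted p = 0.00349) and by 1.07 from peripheral nodes (adjusted p = 0.344). Tmem176a differed by -3.08 from the mesenteric and by -1.12 from the peripheral contrast (adjusted p = 0.325), Ccr6 by -2.14 and -1.11, and Klrb1b by -2.29 and -1.20. For Gbp3 and these 3 genes the call rested on the mesenteric site, and their mesenteric and peripheral contrasts did not differ at the threshold.

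Ctla4 was among the 3 probe sets that differed between node sites. It read 6.78 to 7.35 in mesenteric and 7.12 to 7.41 in peripheral CD25+ cells, but 3.91 to 4.27 in mesenteric and 5.52 to 6.12 in peripheral CD25- cells. The mesenteric contrast of 2.96 exceeded the peripheral one of 1.45 by 1.51 (SE 0.26, adjusted p = 0.0485), and the difference lay in the conventional cells. Pancreatic Teff cells read 5.45 to 5.79, near the peripheral CD25- cells. A second, dimmer probe set of Eomes, a transcription factor of cytotoxic and memory cells, showed the same feature, with a median of 2.69 in mesenteric and 5.65 to 5.78 in peripheral CD25- cells and 5.33 to 6.53 in pancreatic Teff cells (difference 2.41, adjusted p = 0.044). Its brightest probe set had 1.26 (adjusted p = 0.162). The 3 calls were lost under several alternatives, among them median centring.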

How the data were processed

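RNA of sorted CD4+ T cells had been amplified in 2 rounds and hybridised to 1-colour Affymetrix MG-U74Av2 arrays, per the labels' protocols. The deposited values are linear intensities for 12488 probe sets. RMA is named for the lymph node arrays in the submitters' processing notes, with no version, and no method was given for the pancreatic arrays in the sources used here.

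The log2 of the deposited intensities of the 22 arrays was quantile-normalized jointly, and means of 6 groups were fitted with limma 3.58.1 in R 4.3.3. Contrasts were tested with default eBayes settings and adjusted by Benjamini-Hochberg over 12422 probe sets, with 66 control probe sets left out. The controls were stored in another order in the node arrays. Reordering raised their correlation between sets from 0.25 to 0.95, against 0.98 for other probe sets, and the actin ratios use that order. Of the probe sets, 10833 named 1 symbol, 396 several and 1193 none. Symbols were updated by Entrez number to RefSeq (GRCm38.p6), which matched 8237 of 8251 genes. The script was tested on simulated data. The number of arrays limits the precision.

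Named genes were the 12 largest called differences in each direction, called list members, up to 6 genes per class of calls, up to 8 shared genes and up to 6 genes that differed between node sites. Other genes of known function, second probe sets and marker genes were added beside them after their values were seen. The members and lists were chosen with earlier results of these data known. Alternatives covered normalization, filters, weights, blocks, the actin covariate and leaving out each array. Figures were drawn with matplotlib 3.10.9.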

Additional observations from a re-analysis of the deposited data

Results flagged for a closer look

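Among the 24 genes with the largest differences, 48 groups of 5 arrays were searched for an array far from the others, and 3 were found, about as many as chance gives at 1 in 20. Top2a read 5.29 in mesenteric CD25+ replicate 3, and the nearest of the other arrays read 4.93. Trgv1 read 5.99 in pancreatic Teff replicate 2 (nearest 5.66) and 10.26 in mesenteric CD25+ replicate 5 (nearest 10.11).

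Several results are differences between tissues or sites tested as such with limma. The contrast of pancreas differed from that of the nodes in 258 probe sets, from the mesenteric contrast in 166 and from the peripheral contrast in 52. The mesenteric and peripheral contrasts differed in 3 probe sets: Eomes by 2.41, Ctla4 by 1.51 and Scamp1, a vesicle membrane protein, by 0.68 (adjusted p = 0.0485). Scamp1 read 2.59 to 2.66 in mesenteric and 2.99 to 3.23 in peripheral CD25- cells, all near the 5th percentile of levels at 2.75.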

How the results depend on the processing

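The 61 named genes called in the difference kept their direction in each alternative fit, and 28 kept the call throughout; 33 lost it with the actin ratio as a covariate, 23 without some array and 12 with median-centred arrays. The actin covariate left 56 calls in the difference of contrasts, 41 against mesenteric, 26 against peripheral nodes and 130 in the pancreatic contrast. Array weights gave 449, 268 and 222 in the 3 differences with pancreas. Leaving out 1 array gave 160 to 445 calls against both nodes, 61 to 268 against mesenteric, 19 to 109 against peripheral, 0 to 7 between the node sites, and 514 to 1108 in the pancreatic contrast. Between the node sites there were 0 calls with median-centred, scaled or filtered values, with weights by set or with the actin covariate, 10 with array weights and 1 with the array-number run as a block. By array left out, counts against mesenteric nodes were also 70 (mesenteric CD25- replicate 1) and 252 (peripheral CD25+ replicate 1), and against peripheral nodes 96 (pancreatic Treg replicate 1), 87 (mesenteric CD25+ replicate 3) and 81 (peripheral CD25+ replicate 3). The causes were not tested.

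Replicate numbers are given in the node labels only. Same-numbered node arrays deviated together weakly (r from -0.14 to 0.50, median 0.11, over 18 pairs), so the numbers were not taken as pairs. With the replicate block 244 probe sets were called against both nodes, 110 against mesenteric (49 positive and 61 negative), 123 against peripheral nodes and 7 between the sites. The number of arrays and, for dim probe sets (25th percentile 3.65 log2 units), the signal over background limit these counts.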

Other observations

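Pancreatic Treg cells of mice treated with anti-ICOS, from another set of records, (3 arrays) were compared with the Teff cells of that set (3 arrays) after the other data had been seen. By array number these arrays fell in the same runs as the rat IgG arrays. The runs were grouped here from the numbers alone, so they do not show whether the 2 sets of records share a batch. The labels of the anti-ICOS arrays give an age in days, which those of the rat IgG arrays lack. The array number of rat IgG Treg replicate 3 also recurs in that set, for a control IgG Treg sample with an age in days. The sign of Treg minus Teff was the same as in the rat IgG arrays for 22 of the 24 genes with the largest differences. These were 10 of the 12 genes with a positive and all 12 with a negative difference of contrasts. Some of the anti-ICOS values were near 0, such as 0.01 for Slbp and -0.03 for Lmo4 and Snrpd3. The 24 genes had been chosen partly on the rat IgG arrays, and this sign leaves out the nodes. The count is thus no support for the differences of contrasts. Over all 8251 genes the share with the same sign was 67.4%. No probe set passed the adjusted test of limma (0 called, 636 at an unadjusted p under 0.05). The contrast was 2.24 for Il1r2, 2.10 for Itgae, 1.28 for Il10 and 1.42 for Trgv1. Anti-ICOS Treg replicate 3 stood apart. Itgae read 6.46, 7.63 and 3.62 in replicates 1 to 3, and Il10 read 6.05, 6.62 and 4.17.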
